A study of Homo sapiens with 6 samples.

Results

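The genes described here are the 4 ID genes (*ID1*, *ID2*, *ID3*, *ID4*), the genes of the inhibitory SMADs (*SMAD6*, *SMAD7*), *SMAD9* and *BAMBI*. These 8 genes were taken by symbol from the 22807 genes of the deposited table, and each had a row. *ID3* was chosen by its measured rise between the same 6 libraries, so that rise is given below as a description without a test, and it does not count as support for anything. The other 7 were listed for their family or role. MDA-MB-453 is an established human breast cancer line with high *ERBB2*, the gene of the receptor HER2. Its mRNA was sequenced in 3 libraries after transfection with siRNA against *DUSP6*, which encodes a phosphatase that removes phosphate from ERK, and in 3 libraries after transfection with scrambled siRNA. The cells carried no engineered allele and the labels name no drug, and all 6 libraries share the lipid transfection. The siRNAs within a group differed in sequence according to the study's methods, and neither the siRNA of each library nor the time after transfection is given in the sources used here. The spread within a group therefore takes in that between siRNAs, and since no source used here says whether the cells came from cultures started separately, the p-values measure only the spread between these libraries.

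Bone morphogenetic proteins (BMPs) bind receptor serine kinases that phosphorylate SMAD1, SMAD5 and SMAD9. These SMADs enter the nucleus with SMAD4 and switch on target genes, of which *ID1*, *ID2* and *ID3* are the classic examples. ID proteins have a helix-loop-helix domain but no DNA-binding region. They pair with E proteins such as TCF3 and TCF12, keep them off E-box sites and so hold back differentiation and the CDK inhibitor genes that E proteins activate. *SMAD6*, *SMAD7* and *BAMBI* are feedback targets of the same pathway: SMAD6 acts mainly on BMP receptors, SMAD7 on both TGF-β and BMP receptors, and BAMBI is a membrane pseudoreceptor without a kinase domain. In breast epithelium, ID1 and ID3 have been studied mainly for growth and metastasis, and ID2 for differentiation.

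The sequences just upstream of 5 of these genes are shown because SMAD-type letters lie there in different numbers. Each runs 5′ to 3′ on the gene's strand over the 250 bases before its RefSeq start (build GRCh38.p14), and capitals mark the SMAD-type letters CAGAC or its complement GTCTG (SMAD-binding element), GGCGCC (BMP-type SMAD site) and the palindrome GTCTAGAC, made of a pair of such elements.
ID1, chr20:31605039-31605288, plus strand: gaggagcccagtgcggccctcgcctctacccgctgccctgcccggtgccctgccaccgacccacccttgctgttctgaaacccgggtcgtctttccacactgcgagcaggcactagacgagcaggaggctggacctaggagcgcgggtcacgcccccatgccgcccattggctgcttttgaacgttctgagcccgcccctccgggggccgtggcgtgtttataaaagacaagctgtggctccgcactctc
ID2, chr2:8681806-8682055, plus strand: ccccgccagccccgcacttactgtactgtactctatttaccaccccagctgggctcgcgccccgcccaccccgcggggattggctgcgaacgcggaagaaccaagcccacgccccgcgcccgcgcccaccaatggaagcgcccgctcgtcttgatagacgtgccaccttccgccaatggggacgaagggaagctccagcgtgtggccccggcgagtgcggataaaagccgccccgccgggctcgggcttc
ID3, chr1:23559502-23559751, minus strand: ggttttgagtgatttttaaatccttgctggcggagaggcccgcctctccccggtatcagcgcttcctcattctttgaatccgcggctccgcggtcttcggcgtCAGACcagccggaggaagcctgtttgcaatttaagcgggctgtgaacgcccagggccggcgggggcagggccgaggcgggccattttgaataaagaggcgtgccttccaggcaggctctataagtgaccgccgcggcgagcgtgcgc
SMAD6, chr15:66701986-66702235, plus strand: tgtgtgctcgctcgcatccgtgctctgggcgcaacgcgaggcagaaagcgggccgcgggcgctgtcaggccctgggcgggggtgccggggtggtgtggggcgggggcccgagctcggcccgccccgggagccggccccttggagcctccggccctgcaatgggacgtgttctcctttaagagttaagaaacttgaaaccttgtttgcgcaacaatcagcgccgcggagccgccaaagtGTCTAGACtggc
BAMBI, chr10:28677271-28677520, plus strand: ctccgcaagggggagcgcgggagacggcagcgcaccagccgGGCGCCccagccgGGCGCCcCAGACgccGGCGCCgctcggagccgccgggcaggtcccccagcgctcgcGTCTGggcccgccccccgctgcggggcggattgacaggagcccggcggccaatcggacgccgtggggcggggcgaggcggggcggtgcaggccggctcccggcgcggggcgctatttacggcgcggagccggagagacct
The *ID1* and *ID2* stretches held no capitals, that of *ID3* held 1 CAGAC at position -147, counted from the start, and that of *SMAD6* held GTCTAGAC at -12. The stretch of *BAMBI* held 3 copies of GGCGCC, at -209, -196 and -181, and CAGAC or GTCTG at -189 and -140. Over windows that also take in the 50 bases after the start, searched on both strands, CAGAC lay in 6 of the 10 windows of the 8 genes and in 45.26% of all 35116 windows of the RefSeq table. GGCGCC lay in 1 of the 10 and in 19.22% of all. GTCTAGAC, which was searched only after the sequences had been seen and which overlaps the shorter letters only in part, lay in 1 of the 10 and in 71 of the 35116. The E-box CANNTG lay in 6 of the 10 and in 68.68% of all windows. The NF-Y letters CCAAT lay in 5 of the 10 (*ID1*, *ID2*, *ID4*, *SMAD6* and *BAMBI*) and in 34.61% of all windows, with 3 copies in *ID2*, at -172, -122 and -78. The ETS letters CCGGAA lay in 1 of the 10, a *SMAD7* window, and in 17.25% of all windows, and the EGR letters GCGNGGGCG in 4 of the 10 and 9.434% of all. Neither the core of the interferon-stimulated response element (3.574% of all windows) nor the cAMP-type letters TGACGTCA (1.848%) lay in any of the 10. A match shows only that the letters are there. Bases further from the start than these windows were not searched, so a window without a match does not show that the gene lacks such sites.

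A deposited value is a read number relative to the size of the library after scaling by edgeR's TMM method (counts per 1e+06), and 45546981 to 85729785 reads per library lay behind the values. The 12862 genes whose values averaged 1 or more were tested with limma on log2(value + 1), and a gene is said to rise or fall where its p, adjusted over those genes, was under 0.05. Fold changes (log2 FC) are on this log2(value + 1) scale, which understates those of low genes. By this rule 19.7% of the tested genes were higher and 24.7% were lower with *DUSP6* siRNA, 44.5% in all, and the median log2 FC was -0.01. *DUSP6* itself (chromosome 12) was 209, 110 and 114 with scrambled siRNA and 39.4, 24.5 and 35.2 with *DUSP6* siRNA (log2 FC -2.05, SE 0.25, limma adjusted p = 3.09e-04). All 8 luminal markers of a HER2+ line were present. *ERBB2*, with 5.53% of its exon sequence shared with *MIEN1*, was 882 to 1068 in scrambled libraries and 457 to 520 in *DUSP6* siRNA libraries. Of the 8 markers 6 were lower, 1 higher and 1 not called. No fibroblast or endothelial marker with a row passed the filter, *PTPRC* of blood cells stood at 0.0809 or less, and of those 3 lists *CD68* alone was tested, without a call. The collagen gene *COL1A1*, given below among the target genes, was not in the fibroblast list and was 80.7 to 105 with scrambled siRNA. The interferon gene *IFIT1*, looked at after its values were seen, was 3.81 to 12.6 in scrambled and 986 to 1096 in *DUSP6* siRNA libraries. The part of this rise, and of the lower luminal markers, in the changes below was not tested. In bulk RNA, more RNA per cell and more cells that express a gene cannot be told apart.

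*ID3* (Entrez 3399, chr1:23557926-23559501, minus strand) encodes an ID protein that BMPs and TGF-β both regulate. In the order of the replicate numbers, its values were 12.2, 7.95 and 9.48 with scrambled siRNA and 32.1, 48.2 and 34.7 with *DUSP6* siRNA. The lowest *DUSP6* siRNA library lay well above the highest scrambled library. The mean was 9.87 ± 2.13 (SD, n = 3) against 38.3 ± 8.62 (SD, n = 3), a ratio of 3.88, and the log2 FC was 1.85 (SE 0.18). This difference stood at percentile 99.2 of the tested genes, which is a description of the value that picked the gene. Between 415 and 818 reads lay behind the scrambled values and between 1588 and 3939 behind the others, so counting error was small beside the spread between libraries.

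*ID1* (Entrez 3397, chr20:31605289-31606510, plus strand) encodes the founding member of the family and is the usual readout of BMP signaling. It was 9.03, 5.88 and 6.97 with scrambled siRNA and 13.4, 17.2 and 11.8 with *DUSP6* siRNA. The groups did not overlap, and the nearest libraries were scrambled replicate 1 and *DUSP6* siRNA replicate 3. *ID1* rose from 7.29 ± 1.60 to 14.1 ± 2.78 (SD, n = 3 each), a ratio of 1.94 (log2 FC 0.87, SE 0.17, limma adjusted p = 0.00387). The call held under each of the 14 alternative settings, with log2 FC from 0.73 to 1.02.

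*ID2* (Entrez 3398, chr2:8682056-8684461, plus strand) encodes the ID protein best known in mammary differentiation. Its values were 135, 129 and 127 in scrambled libraries and 157, 170 and 152 in *DUSP6* siRNA libraries. Each *DUSP6* siRNA library was above each scrambled library, but the step was small. *ID2* rose from 130 ± 4.25 to 160 ± 8.95 (SD, n = 3 each), a ratio of 1.23 (log2 FC 0.29, SE 0.08, limma adjusted p = 0.0212). The call was lost when any one of the *DUSP6* siRNA libraries was left out (adjusted p = 0.0708, 0.0882 and 0.0584 without replicates 1, 2 and 3), and under quantile normalization the log2 FC was 0.45. The value of *ID2* is uncertain in part, since 6.55% of its exon sequence is shared with the antisense gene *ID2-AS1* and the default counting of Rsubread, which the methods name, does not use strand. *ID2-AS1* itself had 57 to 150 reads per library and values of 1.00 to 1.83.

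*ID4* (Entrez 3400, chr6:19837370-19842197, plus strand), the ID gene with the strongest ties to basal breast cells, was near the limit of detection. It had 0 reads in each scrambled library and 2, 3 and 1 reads in the *DUSP6* siRNA libraries. A count of 0 allows up to 3 reads, a value of 0.0362 to 0.0575 depending on the library, so no difference was detectable and no fold is given. Of the 8 genes, 6 passed the filter, and *ID4* and *SMAD9* did not.

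**Figure D1:**
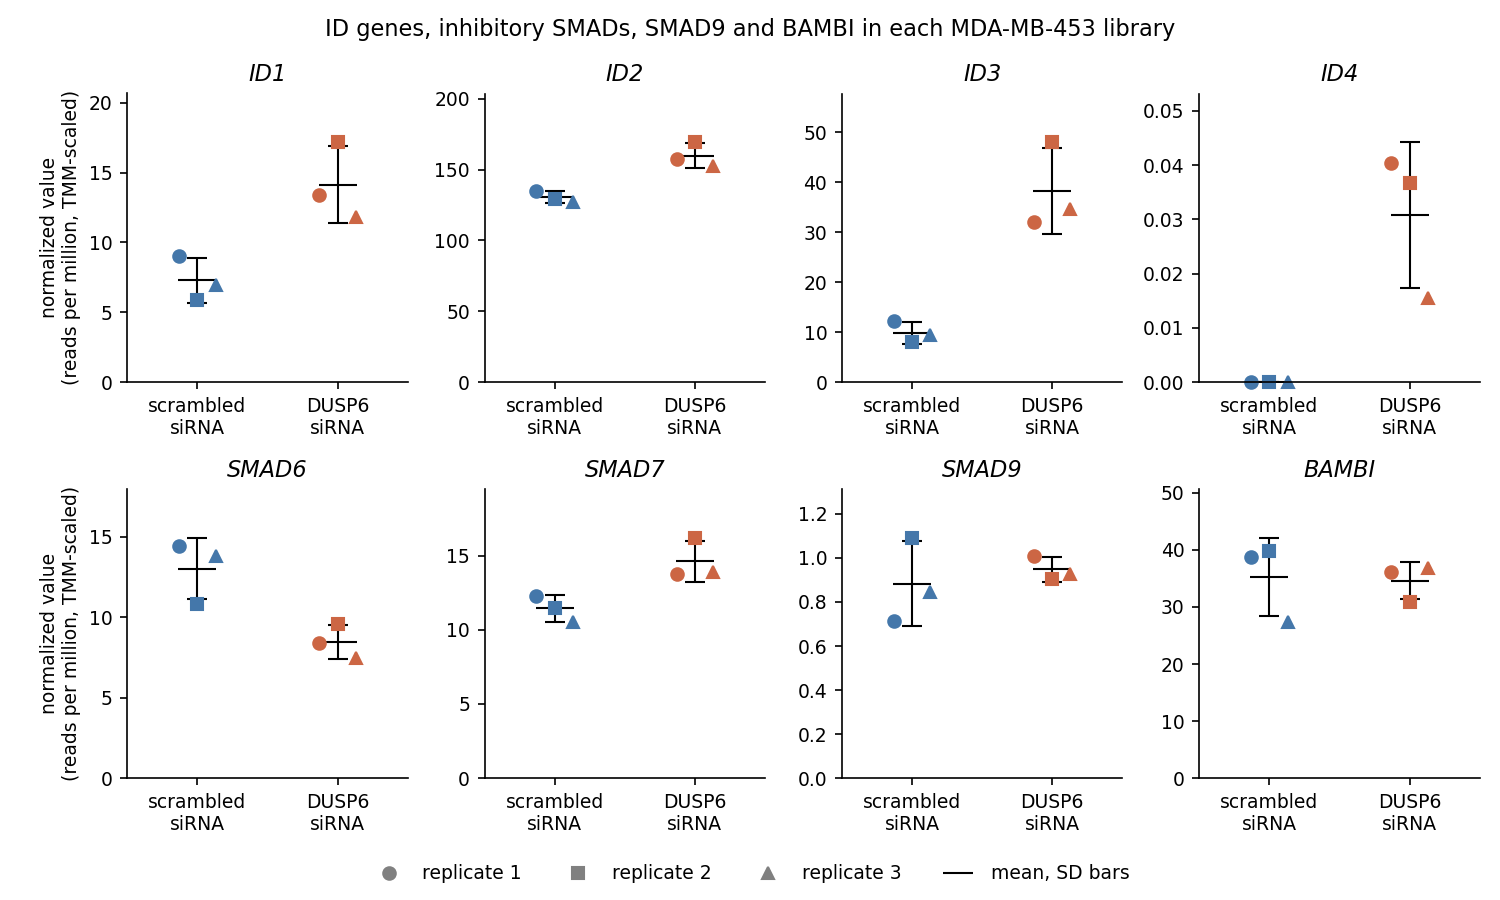
Normalized values (reads relative to the TMM-scaled library, linear axes from 0) of the 8 genes in the 3 scrambled siRNA libraries (blue) and the 3 *DUSP6* siRNA libraries (orange), with the mean and SD in black and the symbol giving the replicate number. The groups do not overlap for *ID1*, *ID2*, *ID3*, *SMAD6* and *SMAD7*, *BAMBI* and *SMAD9* overlap, and the *ID4* values stand for 0 to 3 reads.

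The pair of inhibitory SMADs moved in opposite directions. *SMAD6* (Entrez 4091, chr15:66702236-66782849, plus strand) was 14.5, 10.8 and 13.8 with scrambled siRNA and 8.37, 9.59 and 7.45 with *DUSP6* siRNA. The groups did not overlap, although scrambled replicate 2 came close to *DUSP6* siRNA replicate 2. *SMAD6* fell from 13.0 ± 1.92 to 8.47 ± 1.07 (SD, n = 3 each), a ratio of 0.650 (log2 FC -0.56, SE 0.14, limma adjusted p = 0.0105). Without *DUSP6* siRNA replicate 3 the adjusted p was 0.0540 and the log2 FC -0.48, and the call held under the other 13 alternatives.

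*SMAD7* (Entrez 4092, chr18:48919853-48950965, minus strand) was 12.3, 11.5 and 10.5 with scrambled siRNA and 13.7, 16.2 and 13.9 with *DUSP6* siRNA. It rose from 11.4 ± 0.89 to 14.6 ± 1.38 (SD, n = 3 each), a ratio of 1.28 (log2 FC 0.33, SE 0.11, limma adjusted p = 0.0421). This call was close to the threshold and was lost under 8 of the 14 alternatives, among them the fit without *DUSP6* siRNA replicate 2 (adjusted p = 0.154), without replicates 1 or 3 of that group (0.0827 and 0.0968), and without scrambled replicates 2 or 3 (0.0653 and 0.0684). The direction was the same throughout.

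*BAMBI* (Entrez 25805, chr10:28677521-28682932, plus strand) was 38.7, 39.8 and 27.3 in scrambled libraries and 36.1, 30.9 and 36.7 in *DUSP6* siRNA libraries. The groups overlapped, and scrambled replicate 3 was the lowest of the 6. The means were 35.3 ± 6.89 and 34.6 ± 3.23 (SD, n = 3 each). The log2 FC was -0.01 with a 95% interval of -0.35 to 0.33 (limma adjusted p = 0.952), so a change of that size in either direction cannot be told from none, and the sign differed between settings.

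*SMAD9* (Entrez 4093, chr13:36844831-36920854, minus strand), whose protein carries the BMP signal beside SMAD1 and SMAD5, was expressed at the edge of the filter. It was 0.714, 1.09 and 0.844 with scrambled siRNA and 1.01, 0.905 and 0.927 with *DUSP6* siRNA, from 48 to 74 reads per library, and the groups overlapped. Without the filter its log2 FC was 0.05 (limma adjusted p = 0.707), in a fit that called 13.1% of the 22807 genes higher and 14% lower, 27.1% in all.

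Counting the genes other than *ID3*, 3 of the 5 tested were higher (*ID1*, *ID2*, *SMAD7*), 1 was lower (*SMAD6*) and 1 was not called (*BAMBI*), beside 19.7% and 24.7% of all tested genes. Groups without overlap were found in the same 4 genes, beside 26.7% of all tested genes without overlap and higher and 31.1% without overlap and lower. edgeR on the recovered reads, which called 21.5% of the tested genes higher and 23.1% lower, 44.6% in all, gave the same 4 calls, with log2 FC of 0.99 for *ID1* (edgeR adjusted p = 0.00347), 0.33 for *ID2* (0.0127), 0.39 for *SMAD7* (0.0269) and -0.59 for *SMAD6* (0.0116). When any one *DUSP6* siRNA library was left out, 1 gene, *ID1*, was still called higher, and without replicate 3 none was called lower. *DUSP6* siRNA replicate 2, in which *DUSP6* was lowest, was the highest library of its group for *ID1*, *ID2*, *ID3*, *SMAD6* and *SMAD7*. Scrambled replicate 1, in which *DUSP6* was highest, was the highest of its group for the same 5 genes. With 3 libraries a group, no relation within groups was tested.

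**Figure D2:**
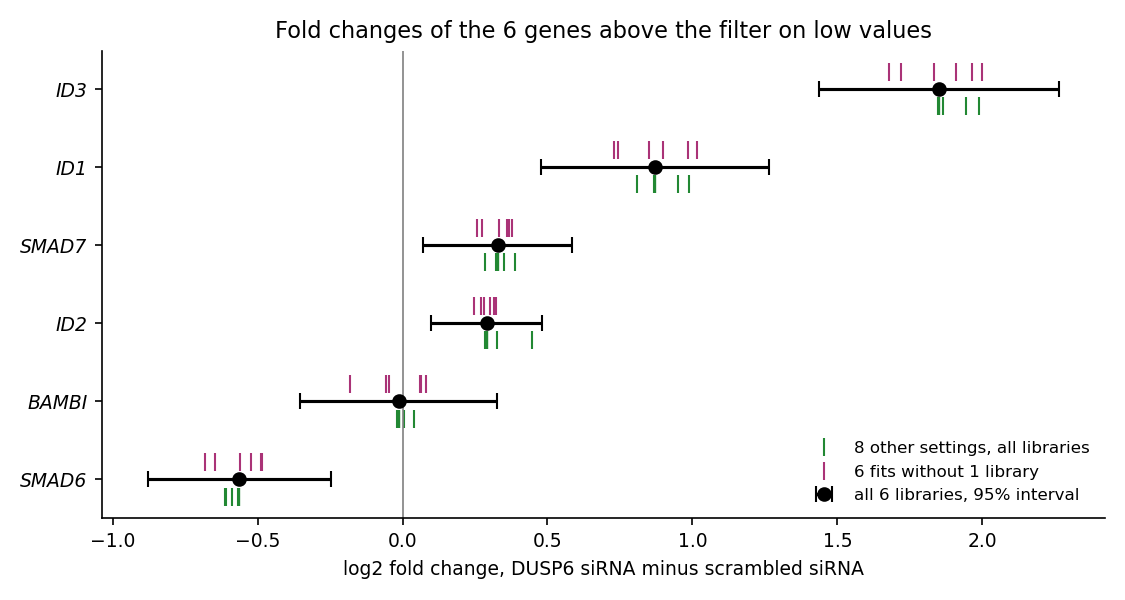
log2 fold change (*DUSP6* siRNA minus scrambled siRNA, on the log2(value + 1) scale) of the 6 genes above the filter, with the 95% interval of the limma fit, the 8 other settings with all libraries (green ticks) and the 6 fits without 1 library (purple ticks). *ID1* stays between 0.73 and 1.02, the *SMAD6* ticks lie below 0, those of *ID2* run from 0.25 to 0.45 and those of *SMAD7* from 0.26 to 0.39, and those of *BAMBI* fall on both sides of 0; *ID3* was picked for its rise.

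Levels of different genes were compared as the value per kb of merged exon, a scale on which reads are divided by gene length. With scrambled siRNA the order was *ID2* (58.9), *BAMBI* (16.5), *ID3* (6.60), *ID1* (5.91), *SMAD7* (2.90), *SMAD6* (1.52) and *SMAD9* (0.148). Of the neighbours in that order, *ID3* (5.32 to 8.13) and *ID1* (4.77 to 7.32) overlapped between libraries. *ID2* stood at percentile 95.3 of the tested genes on this scale, *ID3* at 51.7, *ID1* at 48.7 and *SMAD6* at 20.4. With *DUSP6* siRNA the levels per kb were 72.2 for *ID2*, 25.6 for *ID3*, 16.2 for *BAMBI*, 11.5 for *ID1*, 3.71 for *SMAD7*, 0.990 for *SMAD6* and 0.159 for *SMAD9*. *ID3* thus stood above *BAMBI* there, which follows from the rise that picked it. With the length of the MANE Select transcript in place of the merged exons, a choice made after the data were seen, the scrambled levels were 100.4 for *ID2*, 20.8 for *BAMBI*, 10.4 for *ID3* and 7.42 for *ID1*, over 1.5 times those above for *ID2* and *ID3* but in the same order. *SMAD7* (3.42) and *SMAD6* (3.40) were about equal on that scale, so their order depends on the length used.

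*ID2* made up most of the ID mRNA in every library. The summed level per kb of the 4 ID genes was 71.4 ± 4.45 with scrambled siRNA and 109 ± 11.8 with *DUSP6* siRNA (SD, n = 3 each). The share of *ID2* in this sum was 82.6 ± 2.72% and 66.3 ± 3.39%, that of *ID3* 9.18 ± 1.43% and 23.3 ± 2.75%, and that of *ID1* 8.23 ± 1.30% and 10.4 ± 0.97%. These shares contain *ID3* and are a description. Among *ID1*, *ID2* and *ID4* alone, the share of *ID1* was 10.7%, 7.57% and 8.96% with scrambled siRNA and 13.3%, 15.4% and 12.2% with *DUSP6* siRNA. The groups did not overlap, and the two-sided exact permutation test gave p = 0.1, the smallest that 3 against 3 libraries allow. *ID4* was at most 0.0127% of this sum, so the share restates the ratio of *ID1* to *ID2* given below and is not a separate test.

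**Figure D3:**
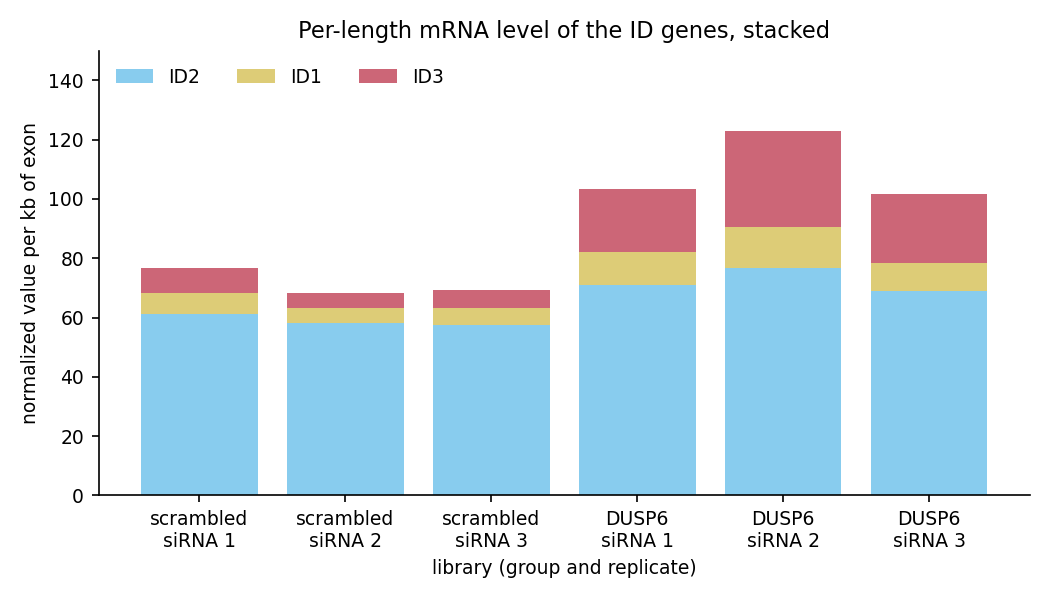
Level of *ID2*, *ID1* and *ID3* (normalized value per kb of merged exon, stacked, linear axis from 0) in each library. The summed height is 68.4 to 76.6 in the scrambled libraries and 102 to 123 in the *DUSP6* siRNA libraries, *ID2* is the tallest part of every bar, and *ID4* is too low to draw.

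Ratios taken within a library do not depend on its scaling. *ID3* to *ID1* was 1.35, 1.35 and 1.36 with scrambled siRNA, and 2.40, 2.80 and 2.94 with *DUSP6* siRNA. Behind the scrambled ratios lay 307 to 607 *ID1* reads and 415 to 818 *ID3* reads per library. Counting error at such read numbers exceeds the spread of the scrambled ratios, so their closeness is not a result about these genes. *SMAD7* to *SMAD6* was 0.851, 1.06 and 0.763 against 1.64, 1.69 and 1.87, a difference of 0.97 in mean log2 ratio. *ID1* to *ID2* was 0.0668, 0.0456 and 0.0548 against 0.0852, 0.101 and 0.0775, a difference of 0.67. *ID1* to *ID2* did not overlap between groups and gave p = 0.1 in the two-sided exact permutation test, the smallest possible. *SMAD7* to *SMAD6* had to separate the groups, since both genes already did so in opposite directions. Its p of 0.1 in the same test therefore adds no support. Both ratios were chosen after the data were seen, and *ID3* to *ID1* was not tested.

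**Figure D4:**
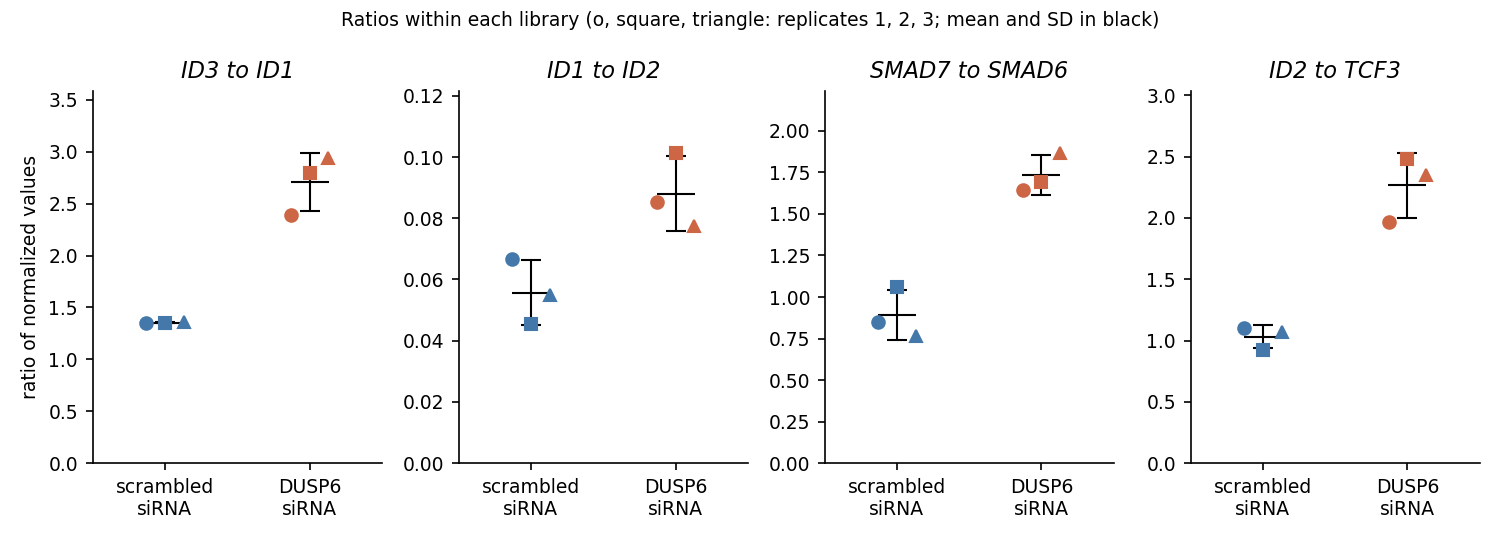
Ratio of normalized values within each library for *ID3* to *ID1*, *ID1* to *ID2*, *SMAD7* to *SMAD6* and *ID2* to *TCF3* (linear axes from 0, points are libraries, black marks give mean and SD). The groups do not overlap in any of the 4 ratios. For *SMAD7* to *SMAD6* and *ID2* to *TCF3* this had to be so, as their genes each separate the groups in opposite directions. The scrambled libraries sit between 1.35 and 1.36 for *ID3* to *ID1*, closer together than counting error alone would usually place them.

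The E proteins are the partners that ID proteins bind. Of the 20 listed E protein and partner genes 9 had a row and 3 were tested. *TCF3*, which encodes E12 and E47, was 123, 139 and 119 with scrambled siRNA and 79.8, 68.4 and 64.8 with *DUSP6* siRNA, and it fell from 127 ± 11.0 to 71.0 ± 7.83 (SD, n = 3 each; log2 FC -0.83, SE 0.11, limma adjusted p = 4.20e-04). *TCF12*, which encodes HEB, was 100 ± 13.6 and 111 ± 2.70 (log2 FC 0.16, adjusted p = 0.253), a call that appeared without scrambled replicate 1 (adjusted p = 0.0354) and under quantile normalization (0.0436). *TCF4*, the gene of E2-2, passed the filter only through the *DUSP6* siRNA libraries, so its place among the tested genes is no support. Its values were 0.744, 0.383 and 0.482 against 1.44, 1.64 and 1.58, and in the limma fit without the filter its log2 FC was 0.74 (adjusted p = 0.00231). The ratio of *ID2* to *TCF3* was 0.925 to 1.10 with scrambled siRNA and 1.97 to 2.48 with *DUSP6* siRNA (difference in mean log2 ratio 1.13, exact permutation p = 0.1). *ID2* and *TCF3* each separated the groups, in opposite directions, so their ratio had to separate them too and its p adds no support. The ratio of *ID2* to *TCF12* differed by 0.13 (exact permutation p = 0.2). Both ratios were chosen after the data were seen. Of the 4 listed CDK inhibitor genes, 3 were tested, and *CDKN1A*, the gene of p21, rose from 52.1 ± 9.84 to 92.7 ± 11.0 (log2 FC 0.83, adjusted p = 0.00229) while the other 2 were not called.

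The other genes of the BMP and TGF-β system were counted in 9 lists by role, the E protein and CDK inhibitor lists included. Of 125 listed genes 102 had a row and 58 were tested, of which 14 (24.1%) were higher, 13 (22.4%) were lower and 31 were not called. These shares are close to the 19.7% and 24.7% of all tested genes, and the median log2 FC was -0.01 in both. *ATOH8* and *TCF4* passed the filter only through the *DUSP6* siRNA libraries, and without them 12 of 56 were higher.

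Among the ligands, 3 of the 16 listed BMP and GDF genes were tested and 1 fell. *BMP4* was 67.7, 56.4 and 58.3 with scrambled siRNA and 37.5, 31.9 and 33.8 with *DUSP6* siRNA (log2 FC -0.80, SE 0.11, limma adjusted p = 4.96e-04). It was the only ligand of that list with a call. Any relation of this fall to the rise of *ID1* was not tested. Of the 7 tested genes of TGF-β, activin and nodal ligands, 1 rose and 2 fell. *TGFB3* fell from 350 ± 12.0 to 166 ± 9.72 (log2 FC -1.08, adjusted p = 3.29e-05), and *GDF11* fell from 17.8 ± 3.23 to 7.12 ± 0.98 (log2 FC -1.20, adjusted p = 3.85e-04). *INHA*, the inhibin α subunit that opposes activin, rose from 2.28 ± 0.20 to 5.09 ± 0.56 (log2 FC 0.89, adjusted p = 4.34e-04).

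Of 11 tested receptors and co-receptors, 3 rose and 1 fell. The type I BMP receptor gene *BMPR1A* was 2.89, 1.99 and 2.04 with scrambled siRNA and 4.12, 6.22 and 4.70 with *DUSP6* siRNA (log2 FC 0.86, SE 0.16, limma adjusted p = 0.00279). The type II BMP receptor gene *BMPR2* was 159, 145 and 153 against 94.9, 91.0 and 94.4 (log2 FC -0.70, SE 0.08, adjusted p = 2.45e-04). *BMPR1A* and *BMPR2* thus moved in opposite directions. *ACVR1C*, the gene of the nodal receptor ALK7, rose from 1.03 ± 0.27 to 2.93 ± 0.37 (log2 FC 0.96, adjusted p = 6.19e-04). *RGMB*, a BMP co-receptor, rose from 59.6 ± 3.40 to 79.2 ± 1.65 (log2 FC 0.41, adjusted p = 0.00505), with 5.46% of its exon sequence shared with *RGMB-AS1*.

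Of the 5 SMADs that carry the signal other than *SMAD9*, which is described above, 1 rose, 1 fell and 3 were not called. *SMAD4*, the partner of all of them, rose from 51.1 ± 2.89 to 66.4 ± 1.59 (log2 FC 0.37, SE 0.09, limma adjusted p = 0.00821). *SMAD1*, a carrier of the BMP signal, fell from 36.2 ± 3.99 to 28.4 ± 0.52 (log2 FC -0.33, adjusted p = 0.0307), a call lost under 6 of the 14 alternatives, the fits without any one *DUSP6* siRNA library and without scrambled replicates 1 or 2 among them (adjusted p up to 0.104), and with 5.30% of its exon sequence shared with *SMAD1-AS1*. *SMAD2*, *SMAD3* and *SMAD5* were not called, with log2 FC of 0.11 (95% interval -0.09 to 0.30), -0.01 and 0.00. *SMAD5* shares 6.75% of its exon sequence with *SMAD5-AS1*.

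Of the antagonists outside the cell, 2 of 16 listed genes were tested. *FSTL3*, which traps activin, rose from 4.58 ± 0.86 to 8.78 ± 0.89 (log2 FC 0.82, limma adjusted p = 0.00193), and *TWSG1* had a log2 FC of 0.21 (adjusted p = 0.236, and 0.0323 without scrambled replicate 1). All 15 listed restraints inside the cell were tested, of which 4 rose and 4 fell. *TOB1*, which encodes an antiproliferative protein that dampens BMP SMADs, was 372, 380 and 289 with scrambled siRNA and 134, 94.7 and 127 with *DUSP6* siRNA (log2 FC -1.55, SE 0.15, adjusted p = 1.02e-04), with 11.2% of its exon sequence shared with *TOB1-AS1*. *WWP1*, a ubiquitin ligase that works with SMAD7, fell from 219 ± 35.9 to 108 ± 3.01 (log2 FC -0.99, adjusted p = 3.00e-04), and *PMEPA1*, which sequesters the TGF-β SMADs, fell from 61.7 ± 12.3 to 35.0 ± 3.28 (log2 FC -0.78, adjusted p = 0.00323). *SMURF1*, the ligase that targets the BMP SMADs, rose from 19.2 ± 1.14 to 26.0 ± 0.51 (log2 FC 0.42, adjusted p = 0.00704), with 11.7% of its exon sequence shared with *TRRAP*. The rises of *TGIF2* (log2 FC 0.36, adjusted p = 0.0418) and *TOB2* (0.32, adjusted p = 0.0376) were lost under 5 and 4 alternatives, the fits without any one *DUSP6* siRNA library among them (adjusted p up to 0.135 and 0.125), and that of *TGIF2* also without scrambled replicate 1.

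Of the 9 tested genes among the other known targets of BMPs or TGF-β, 2 were higher and 3 were lower. One of the higher genes, *ATOH8*, a helix-loop-helix gene induced by BMPs, passed the filter only through the *DUSP6* siRNA libraries. It was 0.640, 0.843 and 0.542 with scrambled siRNA and 2.22, 3.15 and 2.29 with *DUSP6* siRNA (limma without the filter, log2 FC 1.08, adjusted p = 0.00162). *COL1A1*, which encodes a collagen chain, rose from 92.2 ± 12.2 to 173 ± 16.7 (log2 FC 0.90, limma adjusted p = 4.21e-04). *TSC22D1* fell from 225 ± 32.8 to 157 ± 5.00 (log2 FC -0.51, adjusted p = 0.00587), with 5.61% of its exon sequence shared with *TSC22D1-AS1*. The falls of *JUNB* (log2 FC -0.70, adjusted p = 0.0257, with 14.2% of its exon sequence shared with *HOOK2*) and of *MSX2*, a homeobox gene induced by BMPs (-0.46, adjusted p = 0.0346), were lost under 6 and 5 alternatives (adjusted p up to 0.0893 and 0.120). For *JUNB* these took in the fits without *DUSP6* siRNA replicates 2 or 3 and without scrambled replicates 1 or 2, and for *MSX2* those without any one *DUSP6* siRNA library and without scrambled replicate 2. *RHOB* was 387 ± 119 and 378 ± 20.6 and was not called, with a sign that differed between settings.

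**Figure D5:**
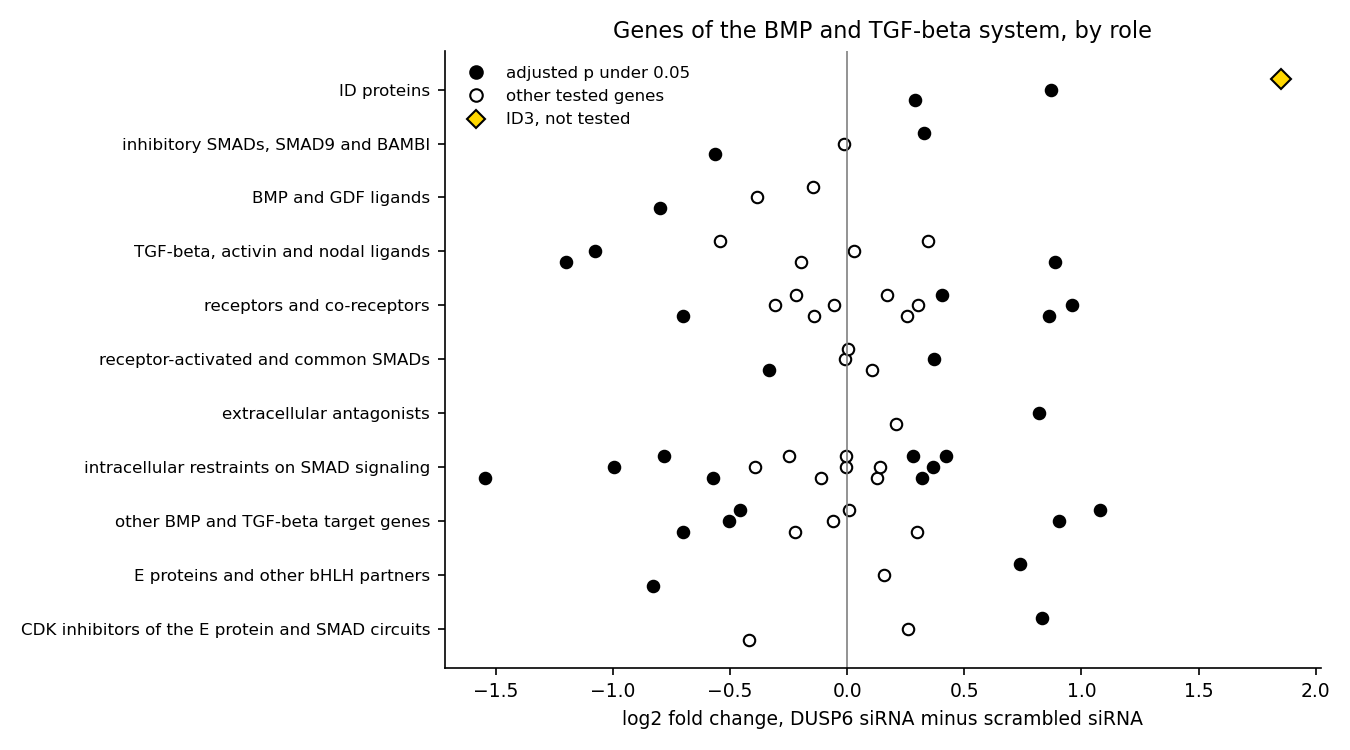
log2 fold change (*DUSP6* siRNA minus scrambled siRNA) of every tested gene of the BMP and TGF-β system, 1 row per role, with filled points for an adjusted p under 0.05, open points for the others and a diamond for *ID3*, which was not tested. Filled points lie on both sides of 0 in most rows, and the 58 genes outside the ID and inhibitory SMAD rows split into 14 higher, 13 lower and 31 not called.

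The genes most like *ID3* over the 6 libraries were sought by the root mean square difference of log2(value + 1), each gene centred on its own mean. They were *PROX1* (0.150), *COL12A1* (0.191), *LRRC4C* (0.202), *RGS2* (0.211) and *GLRB* (0.214). *LRRC4C* (0.172 to 0.372 with scrambled siRNA) and *RGS2* (0.345 to 0.803) passed the filter only through the *DUSP6* siRNA libraries. *PROX1*, a homeobox gene, was 1.71, 1.34 and 1.24 with scrambled siRNA and 5.48, 8.30 and 6.35 with *DUSP6* siRNA, so replicate 2 was again the highest of its group. The 5 genes most like *ID1* were *PFN2* (0.0504), *STARD9* (0.106), *ARHGEF40* (0.110), *BMPR1A* (0.111) and *DZIP3* (0.112). *PFN2*, which encodes an actin-binding profilin, was 18.6, 13.2 and 14.3 against 25.9, 33.5 and 24.9. Neither *ID1* nor *ID2* was among the 5 closest to *ID3*. These genes were chosen for their likeness, so their values are a description.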

How the data were processed

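RNA of 6 MDA-MB-453 libraries was made into sequencing libraries with a stranded mRNA kit per the labels. The authors aligned the reads to hg38 and counted them on RefSeq genes with Rsubread, and deposited 1 normalized signal value per gene and library (the submitters' processing notes name bcl2fastq, edgeR and hg38). The kit marks strand, but the methods give Rsubread's default settings for counting, which do not use it. Dividing each deposited signal value by the library's smallest step gave whole reads (100% of values within a tolerance of 0.01), and the steps were those of TMM scaling. The TMM factors were 0.881, 0.923 and 0.968 for scrambled replicates 1 to 3 and 1.086, 1.081 and 1.082 for *DUSP6* siRNA replicates 1 to 3. The scaling thus differed between the groups, and small fold changes, or none, depend on it. Reads recovered were 45546981 to 85729785 per library, 1 read being a value of 0.0121 to 0.0202. The limit of 3 reads for a count of 0 covers counting error only.

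Replicates 1 to 3 were taken from the labels. limma 3.58.1 in R 4.3.3 (lmFit, eBayes with trend) compared log2(value + 1) of the 12862 genes, of 22807, whose values averaged 1 or more, and p-values were adjusted over all of them by Benjamini and Hochberg's method. The quasi-likelihood test of edgeR 4.0.16, run on the recovered reads, called 2771 genes higher and 2969 lower. The scripts were tested on simulated data. The settings varied were the pseudocount (0.1), the filter (none, or a mean of 10), the scaling (DESeq2's median of ratios, or quantiles), the trend (none), the test (edgeR), a block on replicate numbers, and the libraries (each left out in turn). Gene positions and promoters came from RefSeq on GRCh38.p14, exon lengths and overlaps from GENCODE on hg38, matched by symbol and chromosome (21207 genes). Listed genes given by value or fold change that share over 5% of their exon sequence with a neighbour are given with that share, and their values are uncertain. Overlaps were computed for the genes of the lists only.

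The genes and lists were chosen with earlier results of these data known. Named were all 8 genes, *DUSP6*, up to 3 called genes in each direction and the tested gene with the highest mean value (not per length) of each list, and the 5 genes most like *ID3* and *ID1*. *IFIT1*, *ID2-AS1*, *SMAD3*, *SMAD5*, the markers given by value, *HEY1*, *FST* and *SNAI2* were named after their values were seen.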

Additional observations from a re-analysis of the deposited data

How the results depend on the processing

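Of 30 named genes with a called fold change, 22 kept the call under every alternative that tested them, which left out a mean of at least 10 for *INHA*, *ACVR1C*, *BMPR1A*, *FSTL3*, *ATOH8* and *TCF4*, and the fits without a *DUSP6* siRNA library for *TCF4*. The exceptions were *ID2*, *SMAD6*, *SMAD7*, *SMAD1*, *TGIF2*, *TOB2*, *JUNB* and *MSX2*. Leaving out 1 library gave 1535 to 3213 genes higher among all tested genes (1535 without *DUSP6* siRNA replicate 2, 1686 without replicate 3), 1 to 3 genes higher among the genes other than *ID3* and 0 to 1 lower, with fewer samples in each of those fits. With a mean value of at least 10, fewer genes were tested, 1639 of all genes and 8 of the pathway genes were higher. The log2 fold change of *BAMBI*, -0.01, was 0.039 under quantile normalization, 0.0057 with edgeR, and -0.18 to 0.081 without 1 library (0.061, 0.081 and 0.064 without scrambled replicates 1 and 2 and *DUSP6* siRNA replicate 2). That of *RHOB* was -0.0017 with edgeR and -0.13 to 0.25 without 1 library (-0.13, -0.10 and -0.04 without scrambled replicates 1 and 3 and *DUSP6* siRNA replicate 1), and the cause was not tested. The log2 fold change of *ID3* was 1.68 to 2.00 over the alternatives. Among the genes refitted no other changed sign.

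The replicate numbers do not pair the samples: deviations from the group means of same-numbered libraries correlated at 0.0050, 0.0868 and -0.0764, and scrambled replicate 1 correlated best with *DUSP6* siRNA replicate 3 (0.132). With the replicate block 2495 genes were higher and 3096 lower, 2 of the genes other than *ID3* were higher and 1 lower, *SMAD7* had an adjusted p of 0.0669, and 13 pathway genes were higher and 15 lower. Depth limits *ID4* and *SMAD9*.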

Other observations

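A few target and antagonist genes of the lists lay below the filter and were looked at after their values were seen. *HEY1*, a repressor gene that BMPs and Notch induce, was 0.327, 0.211 and 0.337 with scrambled siRNA and 1.50, 1.82 and 1.62 with *DUSP6* siRNA (limma without the filter, adjusted p = 2.65e-04). *FST*, whose product follistatin traps activin and some BMPs, was 0.268, 0 and 0.0964 against 1.76, 1.47 and 1.82 (adjusted p = 3.63e-04). *SNAI2* stayed under 1 in every library and was 0.134, 0.0575 and 0.0603 against 0.687, 0.660 and 0.633 (adjusted p = 1.64e-04). In each of the 3 genes the groups did not overlap, but the share of all 22807 genes without overlap was not counted. In that fit 20 pathway genes were higher and 11 lower, and other listed genes below the filter were also called higher. The 3 genes are therefore a choice among them and no support. Without the filter, 13.1% of the 22807 genes were higher and 14% were lower.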
